A study of Mus musculus with 16 samples.

Results

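The nuclear-encoded subunits of oxidative phosphorylation were examined in mouse precancerous cells of small cell lung cancer (preSC) with and without a Wnt5a transgene. Genes were taken by symbol: Ndufa, Ndufb, Ndufc, Ndufs and Ndufv followed by a number, Sdha to Sdhd, symbols starting with Uqcr, Cyc1, Cox4 to Cox8 followed by a letter, and symbols starting with Atp5. The rule matched 82 of the 17655 gene symbols listed. Of these, 78 had a mean value of at least 10 over the 16 samples and were tested, among 12357 such genes in all. They comprised 34 genes of complex I, 4 of complex II, 9 of complex III, 15 of complex IV and 16 of complex V. Ndufa4 and its paralog Ndufa4l2, named for complex I, were counted with complex IV. Atp5s, known as coupling factor B, and Cox7a2l, a factor that joins respiratory complexes, match the symbols but are not regarded as plain structural subunits. The rule itself uses symbols and the minimum mean, and it was written with earlier results of these data known.

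Complexes I and II take electrons from NADH and from succinate and pass them through ubiquinone to complex III, cytochrome c and complex IV, where oxygen is reduced. Complexes I, III and IV pump protons across the inner mitochondrial membrane, and complex V, the ATP synthase, uses the return flow to make ATP. Most subunits are encoded in the nucleus and imported, and several complex IV subunits have isoforms used mainly in muscle, lung or testis. The subunits encoded in mitochondrial DNA were not analysed here.

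Both groups were Chga-positive lung neuroendocrine cells with Rb1 null, Trp53 null and Rbl2 heterozygous null genotypes, grown in RPMI1640 with bovine growth serum. The empty group (8 samples) carried an empty lentiviral control and the Wnt5a group (8 samples) carried a lentivirus with Wnt5a, a secreted Wnt ligand. Both were treated with doxycycline at 1 µg/mL for 48 hours before RNA extraction, so doxycycline does not distinguish the groups. The promoter that drives the transgene, and whether a group is 1 clone or a pool of infected cells, are not given in the sources used here.

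Within each group, samples 1 to 4 differed from each other by about counting noise and were counted as 1 library (A), as were samples 5 to 8 (library B). The index of dispersion, which is near 1 for counting noise, was 0.987 to 1.05 in the 24 pairs within a library and 5.23 to 5.44 in the 32 pairs between libraries of a group. Nothing in the labels says what separates the 2 libraries of a group, so each test compares 2 libraries with 2 and measures only the spread between them. The libraries held 30220749 to 35315408 reads, and no tested oxidative phosphorylation gene had fewer than 23 reads in a library. As a check of the labels, the transgene Wnt5a averaged 122 ± 31.4 normalised reads in empty cells and 1279 ± 325 in Wnt5a cells (SD, n = 2). The limma difference was 3.38 on the log2 scale, with a standard error of 0.22 and an adjusted p of 0.0010. Its 2 groups of samples lay at 90.4 to 174 and at 1032 to 1560. All 10 neuroendocrine markers were expressed, with summed values of 51310 to 57620 per library. Of 6 markers each for other cell types, 1 of fibroblasts, 1 of leukocytes, 1 of endothelium and 2 of lung epithelium passed the minimum, and Col1a2, Col3a1, Lyz2, Cd3e, Cd79a, Csf1r, Cdh5, Tek, Sftpa1 and Scgb1a1 averaged at most 3.29 normalised reads per sample in every library, where 1 read is worth about 1. Summed values per library were 244 to 604 for fibroblast, 12.4 to 17.1 for leukocyte, 2006 to 3210 for endothelial (nearly all of it Vwf) and 43.6 to 49.4 for lung epithelial markers. Dcn, on the fibroblast list, had 597 and 340.2 in empty and 241 and 246 in Wnt5a libraries. On the same list, Col1a1 had 2.2 and 3.56 in empty and 0.23 and 0.70 in Wnt5a libraries. Pdgfra had 4.69 and 9.41 in empty and 2.82 and 1.18 in Wnt5a libraries. Which cells the reads of Dcn and Vwf came from was not tested. In bulk RNA, fewer cells of a type and less RNA per cell cannot be told apart.

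Promoter sequences are shown first because many of these genes are known targets of the nuclear respiratory factor NRF1 and of ETS-family factors (GABP, also called NRF2), which coordinate nuclear genes for respiration. Windows from 250 bases before to 50 bases after the start were read from RefSeq (GRCm38.p6), which held 67 of the 82 genes. The core of the NRF1 site was searched as the letters CATGCGC on both strands. ETS sites were searched as CCGGAAG, and the YY1 site as ATGGCGG. The letters of a TATA box were searched as TATAAA. These letters were settled on after shares in these windows had been seen: other strings were tried first, among them longer NRF1 and YY1 letters that gave other shares, so the shares describe this choice of letters. No string of letters contains another of them, but the YY1 letters include a start codon and may lie in a coding sequence after the start. NRF1 letters stood in 13 of the 64 windows of tested members (20.3%), in 8.24% of the windows of all tested genes and in 4.41% of all 27025 windows. ETS letters stood in 16 of the members' windows (25%), in 20.6% of those of all tested genes and in 9.93% of all. For YY1 the shares were 15.6%, 9.56% and 4.69%, and for TATA they were 7.81%, 7.99% and 15.7%. Of the 67 genes, 32 had NRF1, ETS or YY1 letters and 7 had more than 1 of these kinds. A match is a description of the letters and not of a bound site.

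The following stretches show NRF1 letters (capitals) before the start of Atp5g2, which encodes subunit c of the ATP synthase rotor ring, of Atp5k, for its membrane subunit e, of the complex I accessory subunit Ndufa11 and of the complex IV subunit Cox5b, and YY1 letters (capitals) before the start of the peripheral stalk gene Atp5j.
Atp5g2, chr15:102671055-102671111, minus strand: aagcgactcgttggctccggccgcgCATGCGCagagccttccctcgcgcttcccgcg
Atp5k, chr5:108434415-108434471, minus strand: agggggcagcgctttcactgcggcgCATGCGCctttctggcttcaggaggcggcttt
Ndufa11, chr17:56717680-56717736, plus strand: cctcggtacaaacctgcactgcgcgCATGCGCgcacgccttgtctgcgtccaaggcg
Cox5b, chr1:36691411-36691467, plus strand: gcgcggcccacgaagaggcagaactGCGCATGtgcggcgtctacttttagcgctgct
Atp5j, chr16:84835030-84835086, minus strand: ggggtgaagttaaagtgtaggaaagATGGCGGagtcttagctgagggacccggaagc

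Whole windows are shown for the 4 genes that the group comparison below turns on and that the promoter table holds, with NRF1 and ETS letters in capitals. ETS letters stood 38 bases before the start of Atp5h, and 5 bases before and again 33 bases after that of Cox8a. Ndufb8 had NRF1 letters 7 bases after its start, and Ndufv1 had none of the NRF1, ETS or YY1 letters in this window.
Atp5h, chr11:115419870-115420169, minus strand: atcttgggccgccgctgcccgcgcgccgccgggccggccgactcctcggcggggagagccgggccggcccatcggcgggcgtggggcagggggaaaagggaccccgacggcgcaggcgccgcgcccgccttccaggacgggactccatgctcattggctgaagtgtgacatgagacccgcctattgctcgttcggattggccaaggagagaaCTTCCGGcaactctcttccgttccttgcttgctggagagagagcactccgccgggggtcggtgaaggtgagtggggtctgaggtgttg
Cox8a, chr19:7217567-7217866, minus strand: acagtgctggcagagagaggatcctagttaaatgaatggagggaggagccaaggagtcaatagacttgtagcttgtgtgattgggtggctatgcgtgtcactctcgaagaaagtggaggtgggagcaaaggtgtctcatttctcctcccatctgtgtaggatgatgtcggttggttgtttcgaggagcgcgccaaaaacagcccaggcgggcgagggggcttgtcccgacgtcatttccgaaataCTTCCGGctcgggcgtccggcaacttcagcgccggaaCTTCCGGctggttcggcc
Ndufb8, chr19:44555393-44555692, minus strand: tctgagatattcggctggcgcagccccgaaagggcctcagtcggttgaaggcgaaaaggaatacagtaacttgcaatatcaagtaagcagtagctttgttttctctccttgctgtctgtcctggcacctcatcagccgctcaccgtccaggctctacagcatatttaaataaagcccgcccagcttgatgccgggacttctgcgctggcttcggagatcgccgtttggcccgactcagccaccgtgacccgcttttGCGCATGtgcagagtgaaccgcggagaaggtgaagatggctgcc
Ndufv1, chr19:4012706-4013005, minus strand: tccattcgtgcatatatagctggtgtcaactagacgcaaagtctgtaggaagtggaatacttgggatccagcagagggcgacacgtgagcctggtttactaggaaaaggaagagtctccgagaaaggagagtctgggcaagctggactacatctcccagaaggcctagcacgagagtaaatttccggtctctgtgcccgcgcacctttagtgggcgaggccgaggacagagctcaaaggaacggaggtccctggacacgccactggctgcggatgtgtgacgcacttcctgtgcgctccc

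The oxidative phosphorylation genes were broadly and highly expressed. Of the 78, 75 had a mean of at least 100 normalised reads, and together the members held 0.966% of all reads in empty library A (Wilson 95% interval 0.962% to 0.969%) and between 0.965% and 1.11% in the other 3. Levels were compared between genes per kilobase of the shorter well-supported transcript. On that scale the median over members increased from complex II (694) and complex I (767) to complex III (1227), complex IV (1415) and complex V (1911). Per kilobase of the longer transcript the medians were 694 and 627 for complexes II and I, which changed places, and 1056, 1415 and 1429 for III, IV and V. The catalytic beta subunit of the ATP synthase, Atp5b, had the highest value per kilobase (6180), and in complex IV Cox4i1 had 3319.

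No oxidative phosphorylation gene differed between Wnt5a and empty cells at the threshold. By limma, 0 of 78 had an adjusted p under 0.05, where 2.06% of all tested genes did (1.38% higher and 0.672% lower in Wnt5a). By edgeR the count was 0 of 78 (1.99% of all genes) and by DESeq2 1 of 78, Cox6a2 (4.35% of all genes). At an unadjusted p under 0.05 by limma there were 6: Cox6a2, Cox8a, Ndufb8 and Atp5h with higher values in Wnt5a, and Cox4i2 and Ndufv1 with lower ones. Cox4i2 passed the minimum only through its empty libraries, so its place among the 6 is not read as a result. The background at that level was 16.1% of all genes. The median log2 difference over the 78 was 0.03, beside 0.0026 over all tested genes, 53 of the 78 lay within 0.1 of 0, and 1, Cox6a2, was beyond 2-fold.

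How closely the data bound these differences can be read from the intervals. The 95% interval of the limma difference lay within 1.5-fold in either direction for 73 of the 78 genes, with a median half-width of 0.25 on the log2 scale. The 5 others were Cox6a2, Cox4i2, Cox6b2, Ndufb8 and Uqcrq. The library values of the groups did not overlap for 17 members (8 higher and 9 lower in Wnt5a), where 44.2% of all tested genes did not overlap (22.7% higher, 21.5% lower). The members' median did not keep its sign when libraries were left out: it was -0.04 without empty library A, -0.08 without Wnt5a library B, 0.12 without empty library B and 0.14 without Wnt5a library A.

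**Figure D1:**
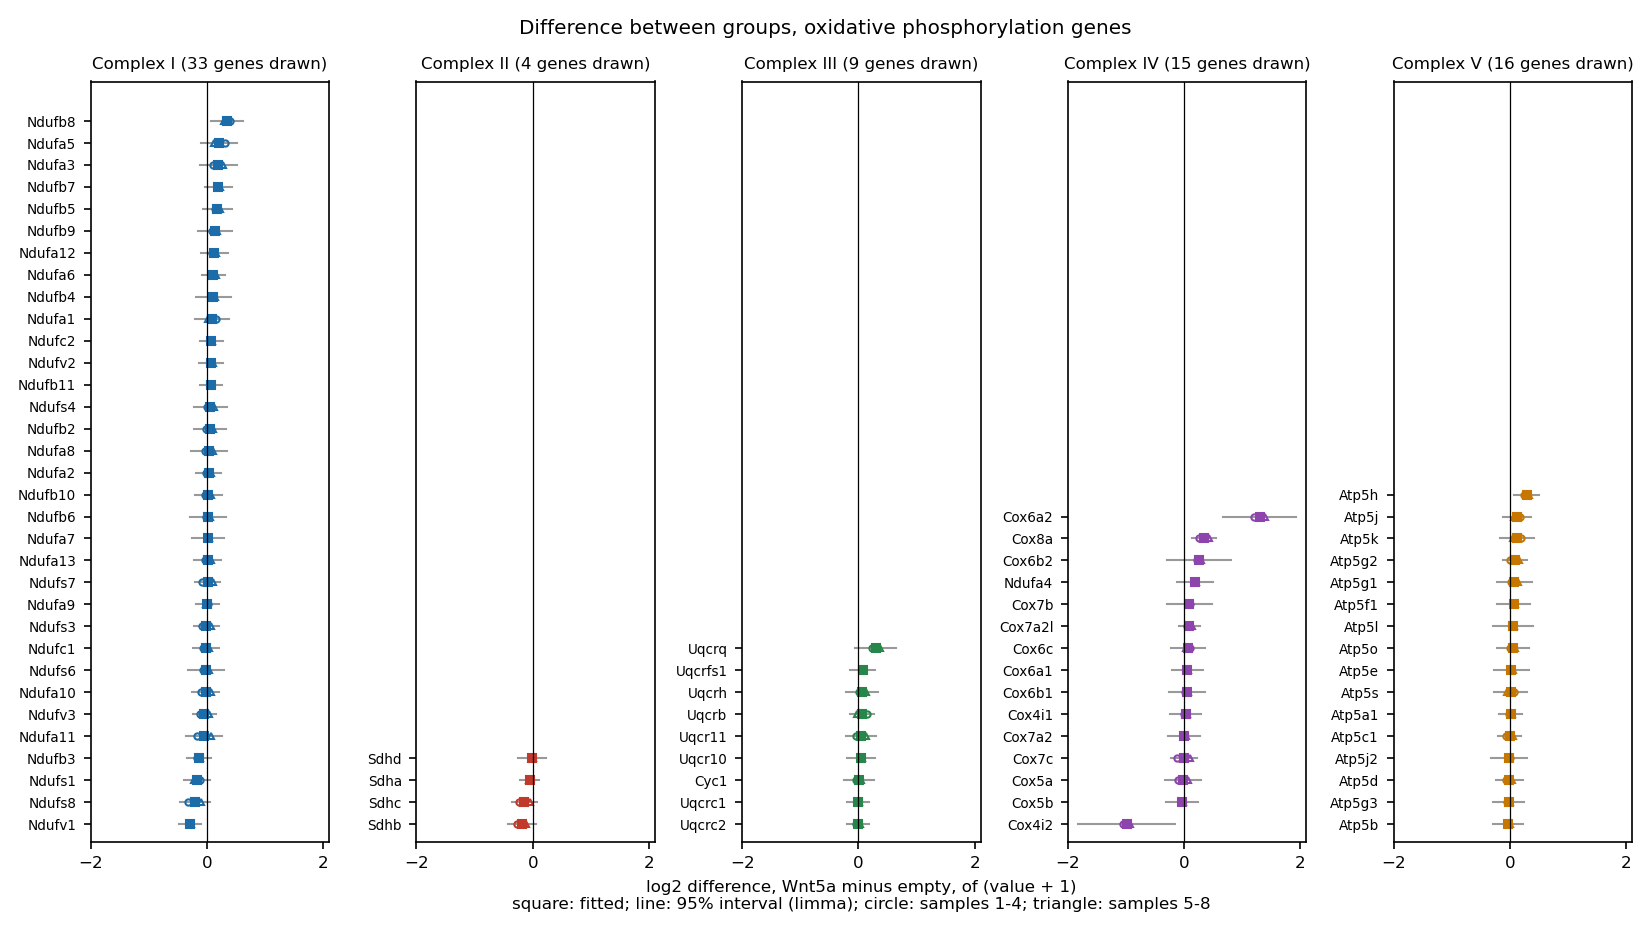
Log2 difference of value + 1 between Wnt5a and empty libraries (horizontal axis) for 77 of the 78 tested genes, 1 row per gene, in 5 panels by complex. Squares are the limma fit with its 95% interval, circles the difference between the A libraries and triangles that between the B libraries. Most genes sit near 0, with Cox6a2 at 1.30 and Cox4i2 at -0.99 apart from the rest.

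Complex I, which oxidises NADH, had a median log2 difference of 0.02 over its 34 tested genes, and 20 of them lay within 0.1 of 0. The 7 core subunits carry the flavin and iron-sulfur centres, and 5 of them were below 0, with a median of -0.17. The 27 accessory subunits had a median of 0.05, with 21 above 0. Ndufv1, the flavin-carrying subunit that takes electrons from NADH, was the most abundant gene of the complex. Its 8 empty samples ran from 2468 through a median of 2594 to 2735, and its 8 Wnt5a samples from 2005 through 2133 to 2357. All empty samples were above all Wnt5a samples, and the fitted difference was -0.29 (log2, with SE 0.08 and limma adjusted p = 0.140).

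The iron-sulfur subunit Ndufs8 of the quinone-reducing module had library values of 988 and 1036 in empty and 792 and 967 in Wnt5a, a log2 difference of -0.21 (limma adjusted p = 0.416). Its single samples overlapped, since the highest Wnt5a sample, at 1007, was above the lowest empty sample, at 961. Ndufs1, the largest iron-sulfur subunit of the NADH-oxidising module, had 1519 and 1762 in empty and 1399 and 1506 in Wnt5a. Its log2 difference was -0.17, and its library values did not overlap between the groups. Of the core genes closer to 0, Ndufs3 was at -0.01, Ndufs7 at 0.01 and Ndufv2 at 0.07.

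Among the accessory subunits the difference farthest above 0 was that of Ndufb8, part of the membrane arm. Its empty samples had 398, 477 and 547 as lowest, median and highest values and its Wnt5a samples 558, 610.4 and 662. The samples did not overlap, and the fitted difference was 0.35 (log2, with SE 0.12 and limma adjusted p = 0.213). Without empty library B, in which its value was nearer to Wnt5a, the difference was 0.49. Ndufa5 (0.21), Ndufa3 (0.20), Ndufb7 (0.19) and Ndufb5 (0.18) followed, of which only Ndufb7 had library values that did not overlap, at 420 and 459 in empty and 470.4 and 535 in Wnt5a. Ndufb3 was the accessory gene farthest below 0, with 604 and 643 in empty and 535 and 593 in Wnt5a libraries, a log2 difference of -0.14. Ndufa3 had the lowest mean of the tested complex I genes, at 182 normalised reads.

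Ndufs5, an accessory subunit of complex I, was close to absent by its own symbol, with 2 and 1 reads in empty libraries and 0 in either Wnt5a library, under the floor of 3 reads. Of the 50-base stretches of its shortest well-supported transcript, 58.8% were unique in the GENCODE M21 transcripts, and the rest were shared with 1 other gene, BC002163. BC002163 had 217 and 222 in empty and 229 and 257 in Wnt5a libraries. Reads of these 2 genes cannot be told apart over the shared stretches, while over the unique stretches they can be. Whether the near-absent count reflects the level of Ndufs5 was not tested.

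Complex II, which oxidises succinate and also belongs to the tricarboxylic acid cycle, was the complex with all of its genes below 0. Its median log2 difference was -0.10, and none of its 4 genes passed the test. The median was between -0.17 and -0.05 whichever library was left out. Its sign could not change there, because the libraries of Sdha, Sdhb and Sdhc did not overlap between the groups. With chromosome medians subtracted the median was -0.03. After subtraction of the median of the 20 neighbouring genes, described further on, Sdhb (0.03), Sdhc (0.10) and Sdhd (0.06) were above 0 and Sdha (-0.06) below it. Sdhb, the iron-sulfur subunit, had samples of 812, 848 and 916 (lowest, median, highest) in empty and 649, 766 and 844 in Wnt5a. The samples overlapped slightly while the libraries did not, and the fitted difference was -0.19 (log2, with SE 0.10 and limma adjusted p = 0.436). The membrane anchor Sdhc had 925 and 923 in empty and 781 and 896 in Wnt5a libraries, a difference of -0.14. The flavoprotein Sdha, the most abundant of the 4, had 2014 and 2036 in empty and 1960 and 1940 in Wnt5a libraries, a difference of -0.05. The other anchor, Sdhd, was at -0.01 with overlapping libraries.

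Complex III, which passes electrons from ubiquinol to cytochrome c, had a median of 0.05, and 8 of its 9 genes were within 0.1 of 0. The core proteins Uqcrc2 and Uqcrc1 and cytochrome c1 (Cyc1) had log2 differences of -0.0096, -0.0072 and 0.0042. The Rieske iron-sulfur protein Uqcrfs1 was at 0.07 and the hinge protein Uqcrh at 0.07. Uqcrq, a small accessory subunit, was the exception. Its samples ran from 446 through 549 to 619 in empty and from 548 through 678 to 791 in Wnt5a. The 2 groups overlapped, and the log2 difference of 0.30 had a limma adjusted p of 0.395. Uqcrc2 had the highest mean of the complex, at 1747, and Uqcr11 the lowest, at 546.

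Complex IV, cytochrome c oxidase, contained the largest fitted difference among the members, that of Cox6a2, the heart and muscle isoform of subunit 6a. The lowest, median and highest empty samples had 61.9, 88.3 and 116 normalised reads, and the Wnt5a samples 146, 219 and 302. Library values were 73.3 and 106 in empty and 171 and 280 in Wnt5a, so that the libraries of a group also differed among themselves, with B above A in both groups. The mean was 2.51-fold higher in Wnt5a, and the fitted log2 difference was 1.30 (SE 0.26, 95% interval 0.67 to 1.92, limma adjusted p = 0.0674). The adjusted p was 1.4e-06 by DESeq2 and 0.0668 by edgeR. It was 0.0014 without empty library A, 8.8e-06 without empty library B, 0.0044 without Wnt5a library A and 0.110 without Wnt5a library B, with differences of 1.03, 1.56, 1.65 and 0.94. Its broadly expressed partner Cox6a1 had 1098 and 1281 in empty and 1133 and 1333 in Wnt5a libraries, a log2 difference of 0.05. Per kilobase, Cox6a2 stood at 232 and Cox6a1 at 2121 over all samples.

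Cox4i2, the lung isoform of subunit 4, lay in the opposite direction at a low level. Its samples had 9.14, 13.2 and 26.5 in empty and 3.76, 6.58 and 11.3 in Wnt5a as lowest, median and highest values. These values overlap and rest on 69 and 44 reads in empty libraries and 37 and 23 reads in Wnt5a libraries. With group means of 15.1 in empty and 7.04 in Wnt5a, the gene passed the minimum of 10 only through the empty libraries, so its difference is given as a description with no test. The fitted log2 difference was -0.99 (SE 0.35). It was -1.35 without empty library B, -0.63 without empty library A and -0.69 without Wnt5a library B. Cox4i1, the general isoform and the most abundant complex IV gene, had 2292 and 2611 in empty and 2283 and 2706 in Wnt5a libraries, a difference of 0.02.

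Of the other isoform pairs, testis-type Cox6b2 had 12.7 and 10.7 in empty and 15 and 13.4 in Wnt5a libraries, a log2 difference of 0.26 (limma adjusted p = 0.679). Its general partner Cox6b1 was at 0.04. The muscle isoform Cox7a1 had a mean of 4.55 and was the closest to the minimum of the 4 members under it, while Cox4i2 and Cox6b2, with means of 11.1 and 12.9, were just inside. Cox7a1 had 12 and 18 reads in empty and 20 and 24 reads in Wnt5a libraries, and Cox7b2 had 0 and 1 in empty and 0 and 2 in Wnt5a. Ndufa4l2, a paralog of Ndufa4, had 6 and 14 reads in empty and 2 and 11 in Wnt5a libraries. Their general partners Cox7a2 (0.00025), Cox7b (0.09) and Ndufa4 (0.19) had log2 differences with overlapping libraries, and Cox7a2l was at 0.09. Cox8b and Cox8c were not analysed here.

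Cox8a, the general isoform of subunit 8, had samples of 635, 685 and 738 in empty and 794, 871 and 991 in Wnt5a as lowest, median and highest values. No sample overlapped, and the empty libraries, at 685 and 703, were close together, while the Wnt5a libraries were at 822 and 940.3. The fitted log2 difference was 0.34 (SE 0.09, 95% interval 0.13 to 0.55, limma adjusted p = 0.127). Of the remaining general subunits, 8 (Cox4i1, Cox5a, Cox5b, Cox6a1, Cox6b1, Cox6c, Cox7a2 and Cox7c) had differences between -0.04 and 0.07. Cox7b, at 0.09, and Ndufa4, at 0.19, were above that range. Over all 15 genes the median was 0.05.

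**Figure D2:**
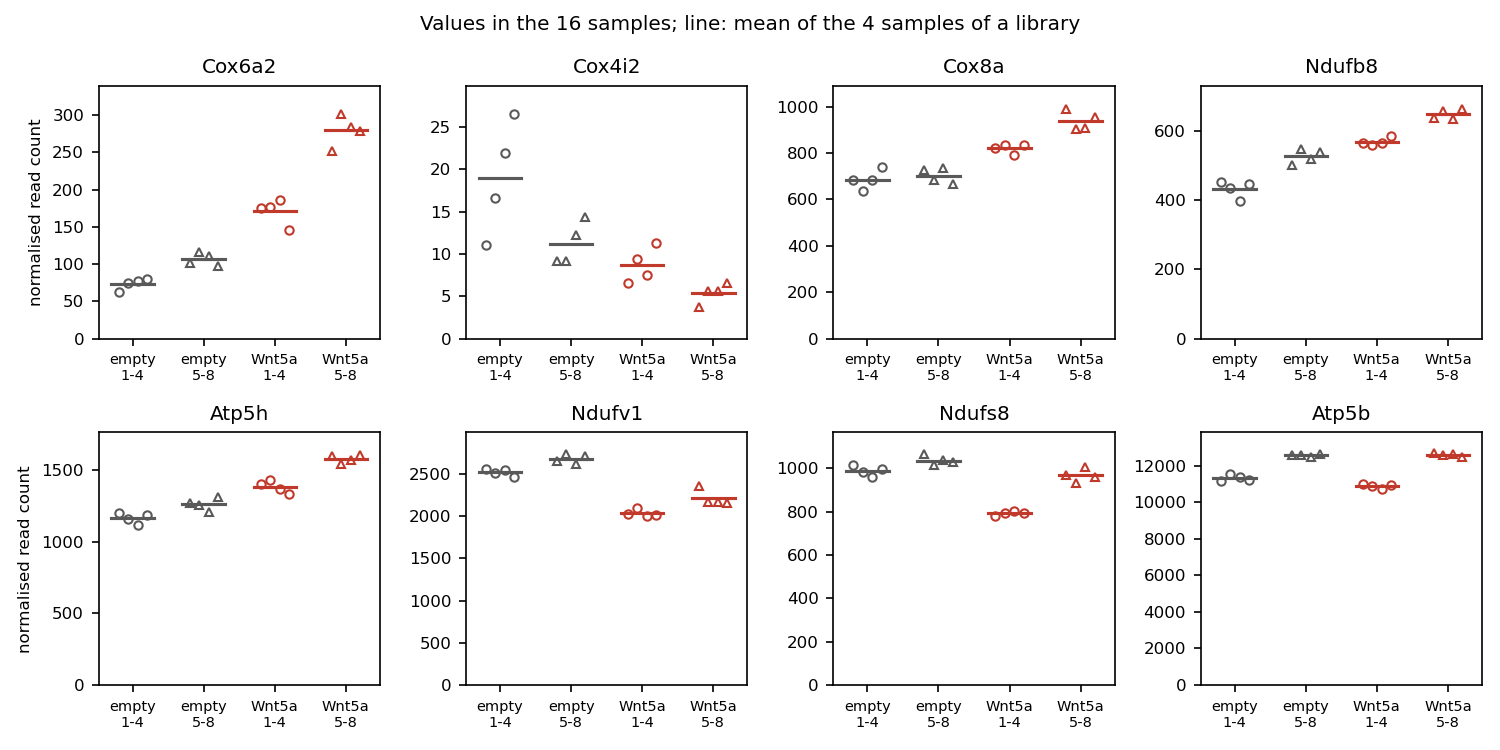
Normalised read count (vertical axis, from 0) of 8 genes in the 16 samples, by group and library. Circles are samples 1 to 4, triangles samples 5 to 8, and each line is the mean of the 4 samples. The Wnt5a samples of Cox6a2, Cox8a, Ndufb8 and Atp5h are above all empty samples, those of Ndufv1 are below them, and the groups of Cox4i2, Ndufs8 and Atp5b overlap.

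Complex V, the ATP synthase, had a median of 0.04 over 16 genes, with 13 of them within 0.1 of 0. Its catalytic head and central stalk (F1, 5 genes) had a median of -0.0036 and a range of -0.03 to 0.02. Atp5b, the most abundant member, had library values of 11314 and 12576 in empty and 10877 and 12594 in Wnt5a, a log2 difference of -0.03. The alpha subunit Atp5a1 had 6753 and 6996 in empty and 6698 and 7160 in Wnt5a, a difference of 0.01. The 3 genes for the same subunit c protein of the rotor ring were Atp5g1 at 0.08, Atp5g2 at 0.09 and Atp5g3 at -0.02. Of these, Atp5g3 had the highest value per kilobase, 2786 against 2536 for Atp5g2 and 1444 for Atp5g1.

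Atp5h, subunit d of the peripheral stalk that holds the head still, was the complex V gene with groups that did not overlap. Its samples ran from 1115 through 1204 to 1311 in empty and from 1330.5 through 1487 to 1608 in Wnt5a. The fitted difference was 0.29 (log2, with SE 0.09 and limma adjusted p = 0.192). The other peripheral stalk genes were Atp5j (0.12), Atp5f1 (0.07) and Atp5o (0.05), with overlapping libraries. Atp5s had the lowest mean of the complex, at 90.1, and a difference of 0.01.

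Counting limits the separation of some members from near-identical copies. Of 50-base stretches of the shortest well-supported transcript, 0% were unique for Atp5g2, 31.5% for Atp5l, 34.0% for Atp5g1, 46.2% for Ndufa12, 47.0% for Cox7c, 49.5% for Atp5h and 56.8% for Uqcrb. The copies are mostly predicted genes, and their part in these values was not tested.

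The 2 libraries of a group differed more than the groups did for most members. For 60 of the 78 genes (76.9%) the difference between libraries A and B, averaged over the groups, was larger than the difference between Wnt5a and empty, against 49.2% of all tested genes. The members moved together in this respect. In both groups, 69 of the 78 were higher in samples 5 to 8 than in samples 1 to 4 (88.5%), against 35.3% of all tested genes, and 2, Cox4i2 and Cox6b2, were lower in both, against 36.0%. The median log2 difference of B minus A was 0.14 in empty and 0.20 in Wnt5a, with -0.000096 and -0.0023 over all genes.

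This held across the complexes that pump protons or make ATP, with 31 of 34 genes of complex I, 9 of 9 of complex III, 12 of 15 of complex IV and 15 of 16 of complex V higher in B in both groups, and 2 of 4 of complex II. Atp5b had 11314 in A and 12576 in B of empty, and 10877 and 12594 in Wnt5a. Cox7b, a small complex IV subunit, had 473 and 616 in empty and 507 and 650.2 in Wnt5a. The members' share of reads was 0.966% in A and 1.07% in B of empty, and 0.965% and 1.11% in Wnt5a. The Wilson intervals did not overlap between A and B, but they cover counting error only and not the spread between libraries. These transcripts are short, with a median of 729.5 bases against 2419 over all tested genes with a length, and short transcripts as a whole were slightly higher in B. Among all genes of at most 600 bases the median difference was 0.05 beside 0.22 for the 26 members of that length, and among those of 600 to 1000 bases it was 0.07 beside 0.23 for 28 members. Of other mitochondrial genes, 62 of 78 mitochondrial ribosomal protein genes, 17 of 22 electron carriers and exchangers and 12 of 18 genes of the tricarboxylic acid cycle were higher in B in both groups. In the assembly lists the counts were 8 of 15 for complex I, 1 of 5 for complex II, 3 of 6 for complex III, 13 of 20 for complex IV and 5 of 7 for complex V. The complex V list also covers regulation. Of 21 genes of mitochondrial biogenesis and transcription, 8 were higher and 5 lower, near the 35.3% of all genes. Of 19 genes of glycolysis, 2 were higher and 11 lower. What these values come from was not tested.

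**Figure D3:**
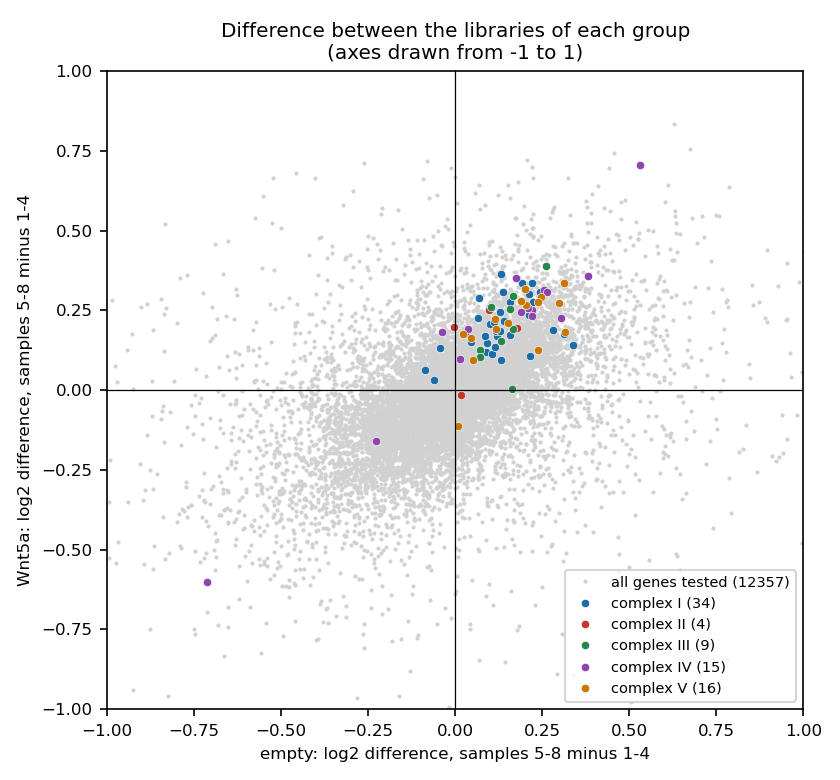
Log2 difference of samples 5 to 8 minus samples 1 to 4 in empty cells (horizontal axis) and in Wnt5a cells (vertical axis), both drawn from -1 to 1. Grey points are the 12357 tested genes and coloured points the oxidative phosphorylation genes by complex. 69 of the 78 coloured points have both differences above 0, as do 35.3% of all genes.

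The members with the clearest group differences were set against their chromosome neighbours, because the median tested gene was shifted on chromosomes 1 (-0.17), 11 (0.17) and 19 (0.36) and near 0 on the other autosomes. Chromosomes and gene order came from RefSeq (GRCm38.p6). The 6 members on chromosome 1, among them Ndufb3, Sdhc and Cox5b, were all below 0, with a median of -0.14. The 4 on chromosome 11 (Atp5h, Uqcrq, Atp5g1 and Uqcr10) were all above 0, with a median of 0.18. On chromosome 19, Cox8a and Ndufb8 were above 0 and Ndufv1 and Ndufs8 below it. Of the 10 members beyond 0.2, 6 were on these 3 chromosomes, which hold 14 of the 78.

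Chromosome 19 was not shifted evenly. In the order of its 412 tested genes, all 40 at places 11 to 50 were below 0, with a median of -0.33, and this stretch holds Ndufv1 at place 17. Ndufs8 stood just before it, at place 10, and of the 10 genes at places 1 to 10 it was among the 3 below 0, with 7 above and a median of 0.23. From place 61 on, 328 of 352 genes were above 0, with a median of 0.38, and Cox8a at place 132 and Ndufb8 at place 324 were among them. Between these stretches, 7 of the 10 genes at places 51 to 60 were beyond 1.5. The bounds of the stretches were chosen after the values were seen.

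**Figure D4:**
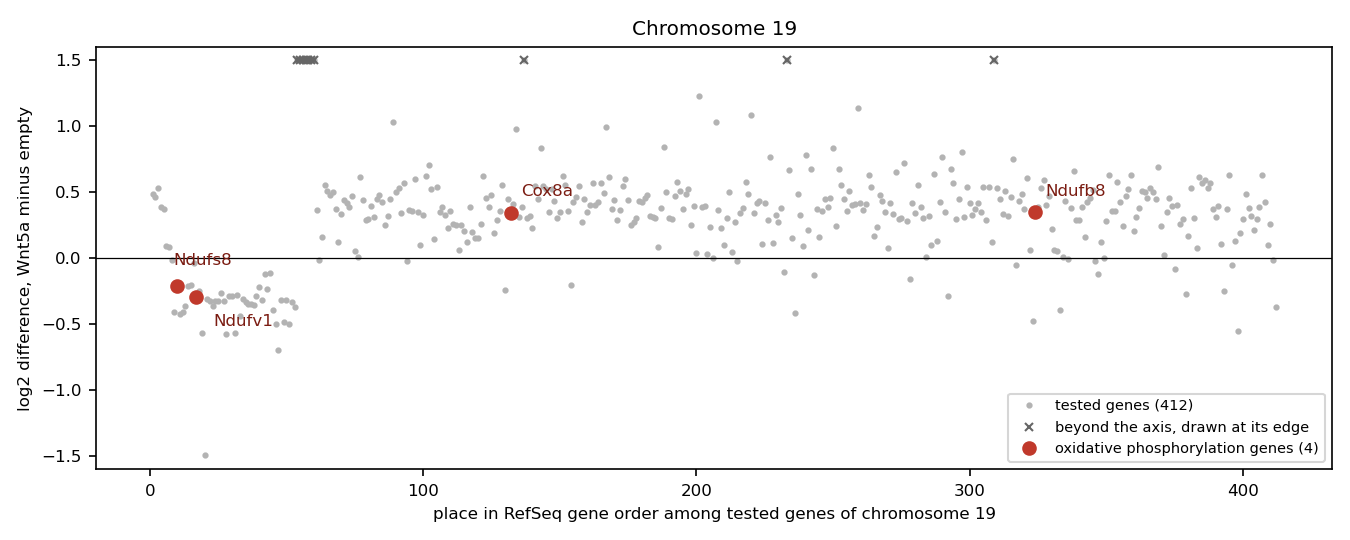
Log2 difference between Wnt5a and empty libraries (vertical axis) of the 412 tested genes of chromosome 19 in RefSeq order (horizontal axis, place in the order). Grey points are all genes, crosses are genes beyond 1.5 drawn at the edge, and red points are the 4 oxidative phosphorylation genes. Ndufs8 sits just before a stretch of 40 genes below 0 and Ndufv1 within it, and Cox8a and Ndufb8 sit in the long stretch with a median of 0.38.

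The comparison was repeated gene by gene with the 10 nearest tested genes on each side, a number chosen with the values known. The neighbours' median was -0.33 for Ndufv1 (19 of 20 below 0), -0.20 for Ndufs8 (12 of 19 below 0), 0.40 for Cox8a (19 of 20 above 0), 0.38 for Ndufb8 (17 of 20 above 0) and 0.18 for Atp5h (18 of 20 above 0). The median tested gene of chromosome 4 was at 0.00070. For the complex II gene Sdhb, which lies there, the neighbours' median was -0.22 (18 of 20 below 0), close to its own -0.19. It was -0.24 for Sdhc and -0.20 for Ndufs1. In 12 members the neighbours' median was beyond 0.1, and after it was subtracted 0 of the 12 were beyond 0.2, where 5 had been. Over these 12, picked by their neighbours' median, the gene's own difference and that median had a Pearson r of 0.95 and a Spearman rho of 0.66. This is a description of genes that share libraries and in part neighbours. Over the 66 other members r was 0.16 and rho 0.14, and 5 were beyond 0.2 before subtraction and 7 after it.

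For Cox6a2 and Cox4i2 the neighbourhood gave no such value. The neighbours' median was 0.0026 for Cox6a2 on chromosome 7, with 10 above and 10 below 0, and -0.04 for Cox4i2 on chromosome 2. After subtraction 7 of the 78 members were beyond 0.2. Cox6a2, Cox4i2, Cox6b2, Ndufa5 and Uqcrq had been so before, while Ndufa4 (from 0.19 to 0.21) and Ndufb7 (from 0.19 to 0.21) passed 0.2 only after it. Over all 78 genes r was 0.43 and rho 0.46. With chromosome medians subtracted before the test, Ndufv1 was at -0.65 with a limma adjusted p of 0.0124, since its own stretch of chromosome 19 lies below 0 and the chromosome median above it.

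**Figure D5:**
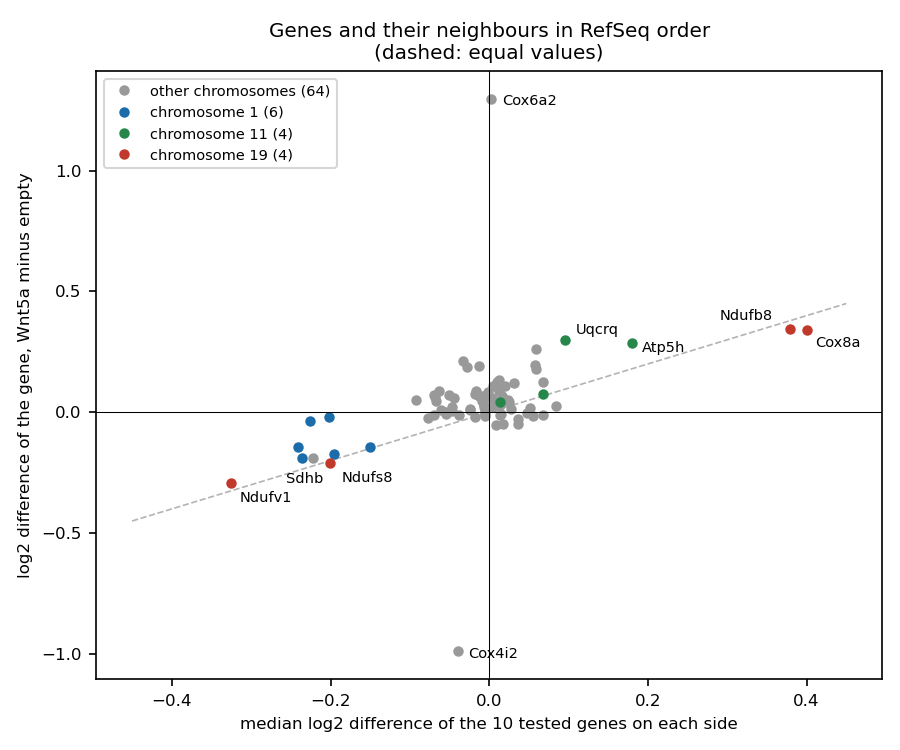
Log2 difference of each of the 78 genes (vertical axis) against the median log2 difference of the 10 tested genes on each side (horizontal axis), with the dashed line where both are equal. Ndufv1, Ndufs8, Sdhb, Cox8a, Ndufb8 and Atp5h lie near the line, and Cox6a2 and Cox4i2 lie far from it with neighbours near 0.

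Other genes of the pathway were described from lists written from general knowledge, and none of their genes passed the limma test. The 53 tested genes of the assembly lists of the 5 complexes had a median log2 difference of 0.15, with 45 above 0. Library values did not overlap for 33 higher and 4 lower genes, beside 22.7% and 21.5% of all tested genes. The complex V list also covers regulation and includes Usmg5 and Atpif1. Of the 10 genes of these lists with an unadjusted limma p under 0.05 (16.1% of all tested genes), 8 were on chromosomes 1, 11 and 19. The median over the 53 was 0.09 after the neighbours' median was subtracted. Cox15, which makes the heme A of complex IV, had 183 and 187 in empty and 255 and 256 in Wnt5a libraries, a difference of 0.47 (limma adjusted p = 0.0598), on chromosome 19 with a neighbours' median of 0.41. Uqcc3, a complex III factor also on chromosome 19, had 54.6 and 57.1 in empty and 77.7 and 86.5 in Wnt5a, a difference of 0.55 with a neighbours' median of 0.43.

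The 22 electron carriers and exchangers (cytochrome c, ubiquinone synthesis, adenine nucleotide and phosphate carriers) had a median of 0.02, with 14 above 0 and differences from -0.17 to 0.17. That list also holds Ndufab1 (0.07), whose symbol the rule does not match. Cytochrome c (Cycs) had 1391 and 1588 in empty and 1274 and 1556 in Wnt5a libraries. The 18 genes of the tricarboxylic acid cycle and pyruvate dehydrogenase had a median of 0.0026. Fumarase, Fh1, on chromosome 1, had the difference farthest from 0 in that list, -0.23, with 1299 and 1407 in empty and 1116 and 1186 in Wnt5a. The 21 genes of mitochondrial biogenesis and transcription had a median of 0.07. In that list the coactivators Ppargc1a (238 and 229 in empty, 135 and 206 in Wnt5a) and Ppargc1b (21.0 and 27.3 in empty, 17.9 and 14.3 in Wnt5a) were at -0.49 and -0.55, with limma adjusted p of 0.278 and 0.300. Their relative Pprc1, on chromosome 19, was at 0.45 (limma adjusted p = 0.0944).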

How the data were processed

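RNA-seq of oligo-dT mRNA (500 ng total RNA, NEBNext Ultra kit) was deposited as 1 table per sample. The deposited values are a signal per gene, called normalized by the authors. In every file 100% of the values were whole multiples of 1 step within a tolerance of 0.01 of a read, so whole reads were recovered. The submitters' processing notes name TopHat, Bowtie, HTSeq and DESeq2; versions, build and strand use are not given in the sources used here.

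Samples 1 to 4 and 5 to 8 of a group were averaged to 2 libraries. Genes with a mean of at least 10 were tested with limma 3.58.1 (R 4.3.3, lmFit, eBayes with trend) on log2(value + 1), adjusted by Benjamini-Hochberg over all 12357 genes at a threshold of 0.05. Differences are on that scale, which understates low genes. The exact two-sided permutation p of Wnt5a over the 4 libraries was 0.333, the smallest possible. Wilson intervals and floors cover counting error only, and limma intervals the spread between libraries. edgeR 4.0.16, DESeq2 1.42.0 and other settings were alternatives. limma, edgeR and DESeq2 were tested on simulated data, the other settings were not.

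Members and lists were chosen with earlier results of these data known. Members named were those past the threshold, the largest non-overlapping differences and the highest and lowest means of each complex, paralog sets, and members on chromosomes 1, 11 and 19. The values of 1 member are not reported here; it is counted in the totals. Others were named after their values were seen, as were the motifs, the neighbour number and the chromosome 19 stretches. Genes were matched to RefSeq and GENCODE M21 by symbol.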

Additional observations from a re-analysis of the deposited data

How the results depend on the processing

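The 254 genes called overall became 146 without a filter, 102 with a minimum mean of 50, 158 without the trend, 538 with DESeq2 and 138 to 1098 with a library left out. The higher share of calls was 67.3%, against 89.0% without a filter, 58.8% with a minimum of 50, 58.2% with DESeq2 and 57.0% with chromosome medians subtracted. The 0 members called became 1 with chromosome medians subtracted (Ndufv1), 1 with DESeq2 (Cox6a2) and 0 to 4 with a library left out (4 without empty library B: Cox4i2, which passed the minimum only through its empty libraries, Cox6a2, Ndufb8 and Uqcrq). A group left with 1 library was assumed to vary like the other group.

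The sample numbers do not establish pairs, since only 2 libraries per group exist. Deviations of the A libraries from their group means had r = 0.44 and rho = 0.53 across the 12357 genes, which are no replicates of each other. With the replicate block, 2095 genes (17.0%, 51.2% of them higher) and 10 members were called, among them Atp5h, Cox6a2, Cox8a, Ndufa4, Ndufb8, Ndufv1 and Uqcrq. Cox4i2 was also among the 10, but it passed the minimum only through its empty libraries.

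The 10 members beyond 0.2 kept their sign under every alternative that tested them except subtraction of chromosome medians, where 8 did. These 10 were picked by the size of that difference. Apart from Ndufa5 and Uqcrq, their libraries did not overlap between groups, so leaving out a library could not change the sign. Fits with another filter, without the trend or with the block use the same differences, so the signs there were fixed too. Medians of complexes I, III, IV and V turned below 0 without empty library A or Wnt5a library B, as did the members' median. Depth limits Cox4i2, Cox6b2 and the 4 members under the minimum.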

Other observations

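Genes of glycolysis, the other main route to ATP, were described beside the respiratory genes. None of 19 passed the limma test, 16 were below 0 and the median log2 difference was -0.09. Aldoa had 2744 and 2146 in empty and 1825 and 1957 in Wnt5a libraries (-0.36, limma adjusted p = 0.208), and Pgam1, on chromosome 19, had 1201 and 1070 in empty and 1400 and 1408 in Wnt5a (0.31, limma adjusted p = 0.132). The difference between libraries was larger for several of them. Aldoc had 205 in A and 79.4 in B of empty and 107 and 53.9 in Wnt5a, the glucose transporter Slc2a1 had 516 and 320.1 in empty and 439 and 316 in Wnt5a, and Pdk1, which inhibits pyruvate dehydrogenase, had 660.4 and 399 in empty and 569 and 432 in Wnt5a. All 3 were lower in B in both groups, while 69 of the 78 oxidative phosphorylation genes were higher.

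The 78 mitochondrial ribosomal protein genes had a median log2 difference of 0.09, with 67 above 0 and none past the limma threshold. Mrpl16 (0.58), Mrpl21 (0.46) and Mrpl43 (0.40) on chromosome 19 and Mrpl45 (0.42) on chromosome 11 were the farthest above 0, and Mrpl11 on chromosome 19 was the farthest below it (-0.33). Their neighbours' medians were 0.38 for Mrpl16, 0.08 for Mrpl21, 0.38 for Mrpl43, 0.20 for Mrpl45 and -0.11 for Mrpl11. After the neighbours' median was subtracted, the number beyond 0.2 went from 18 to 7 and the median was 0.06.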
